A study of Mus musculus with 12 samples.

Results

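All 12 liver libraries of the series were used to ask which genes differed the same way, on both diets, between mice labelled as lacking thrombospondin 1 (TSP1, gene Thbs1) in macrophages and floxed control mice. The genotype effect is the mean of both groups labelled knockout minus the mean of both floxed groups, with diet kept in the model. There were 4 groups of 3 libraries from 129/B6 mice of 10 months, kept for 8 months on a diet labelled LF or HF. The LF floxed and HF floxed groups carry the title TSP1flox and the genotype label WT. The LF knockout and HF knockout groups carry the title MɸTSP1 -/- and are labelled as macrophage specific. The Cre line is not given in the sources used here, so neither is the set of cells in which it acts. RNA came from whole liver, in which fewer cells of a type and less RNA per cell cannot be told apart.

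TSP1 is a secreted glycoprotein of the matrix that binds the receptors CD36 and CD47 and can release TGF-beta from its latent form. Liver answers interleukin 6 through the transcription factor STAT3, which drives acute phase proteins such as haptoglobin and its own inhibitor SOCS3. Hepatocytes also make hepcidin, the hormone that blocks iron export, under control of BMP signals and STAT3. Many mouse liver cytochromes P450 and major urinary proteins differ between the sexes under control of growth hormone.

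Named genes held 13336969 to 15080378 estimated counts per library, and 12587 of them passed the filter on low counts. The hepatocyte genes Alb, Apoa1 and Ttr were high throughout, with Alb at 20592.9 FPKM or more in each of the 12 libraries. LF knockout replicates 2 and 3 were near-identical (r = 0.9957 across genes), as were HF floxed replicates 1 and 2 (r = 0.9935). Their chi-square per degree of freedom was 2.85 and 8.87, above the 1 of pure counting noise, against 50.7 to 527.82 in the other pairs, and each library was counted separately. HF knockout replicate 2 stood apart from its group, with r of 0.8751 and 0.9012. The spread between libraries, as a biological coefficient of variation, was 23.3 to 28.2% in 3 groups and 52.9% in HF knockout. Nothing in the labels ties a library to an animal, and p-values here rest on library-to-library spread that may be partly technical. Levels below are CPM, the named-gene counts scaled to library size with TMM factors, unless FPKM is named.

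The targeted gene, Thbs1, was no lower where the label says knockout, so each direction given here follows the label alone. Thbs1 was at 0.731, 0.382 and 0.462 CPM in LF floxed and 0.511, 3.25 and 3.5 in LF knockout. On HF the floxed libraries held 4.14, 3.84 and 1.91 CPM and the libraries labelled knockout 1.17, 8.78 and 9.2. Replicate 1 of each knockout group lay at the level of the floxed libraries of its diet or below, and the other libraries labelled knockout held 3.25 CPM or more on LF and 8.78 or more on HF. The averaged log2 difference was 1.57 (SE 0.55), with an edgeR adjusted p of 0.994. On log2(FPKM + 1) the difference was 0.32, and a two-sided exact permutation test within diets gave p = 0.22 (adjusted over 3 genes 0.22). Lyz2 is the lysozyme gene of macrophages and neutrophils, and its locus carries the Cre of a widely used macrophage line. Its averaged log2 difference was -1.07 (SE 0.56, edgeR adjusted p = 0.994). With 1 library left out it ran from -1.53 (without HF knockout replicate 1) to -0.71 (without LF floxed replicate 3). Lyz2 was at 23.2, 31.8 and 77.8 CPM in LF floxed, 14.9, 40.8 and 37.3 in LF knockout, 62, 58.8 and 42.3 in HF floxed and 35.2, 16.7 and 1.39 in HF knockout. The genotypes overlapped for Lyz2 on LF and did not on HF. Its exact permutation p on log2(FPKM + 1) was 0.075 (adjusted 0.1125). Smpdl3b, a sphingomyelin phosphodiesterase-like gene, was -0.91 on LF and 2.57 on HF on the log2 scale, so its averaged difference of 0.83 (SE 0.6) joins opposite signs. With 1 library left out that average ran from 0.57 (without LF floxed replicate 1) to 1.87 (without LF floxed replicate 3). On log2(FPKM + 1) its difference was 0.47 (exact permutation p = 0.075, adjusted 0.1125).

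Of 18 genes for TSP1, its receptors and partners, 17 were higher on average and 1 lower, with a median log2 difference of 0.28 against 0.01 over all 12587 genes tested. On both diets 9 were higher and 1 was lower, against 21.7% and 20.9% of all genes tested, and none passed the test. Cd36, the fatty acid translocase that binds TSP1, was 3.15 higher on LF on the log2 scale and -0.97 on HF, and the receptor Cd47 was -0.18 and 0.3. The 10 tested genes on each side of Thbs1 had a median of 0.14 (14 higher, 6 lower), and those around Lyz2 a median of 0.11 (16 higher, 4 lower). Lyz1, the tested gene next to Lyz2, was -0.88 on LF and -0.87 on HF, with overlapping CPM on both diets. Yeats4, on the other side of Lyz2, was -0.05 and 0.21.

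No gene passed a false discovery rate of 5% for the averaged genotype effect (0% of genes tested, edgeR), and the smallest adjusted p was 0.0776, for Cyp2b9 and Hbb-bt. Before adjustment, 405 genes had p under 0.05 (3.22%), 233 higher (1.85%) and 172 lower (1.37%). The 3.22% is below the 5% that such a threshold would give with no genotype effect in any gene. By sign alone, 51.1% of genes were higher and 48.9% lower. On the same counts 23 genes passed in DESeq2 and 4 in limma voom with weighted libraries, the latter being the globin genes Hbb-bs, Hbb-bt, Hba-a1 and Hba-a2. The genes below are given by their levels, and none is a call of the edgeR test of the averaged effect.

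Fewer genes had the same sign on both diets than opposite signs, and this rested in part on HF knockout replicate 1. The log2 difference had the same sign on LF and HF for 5363 genes (42.6% of those tested), higher on both for 21.7% and lower on both for 20.9%. Across genes the effects on LF and HF had a Pearson r of -0.268 and a Spearman rho of -0.234. These are descriptions across genes, which are not independent replicates, and the diets share no library. Leaving out LF floxed replicate 3 moved r to -0.035. Unadjusted p was under 0.05 on each diet with the same sign for 17 genes (0.135%) and with opposite signs for 85 (0.675%). In 43 genes (0.342%) all 3 libraries labelled knockout lay on the same side of all 3 floxed libraries on both diets, 24 of them higher (0.191%) and 19 lower (0.151%). With genotype labels exchanged within diets, a gene would be apart this way in a share of 0.005 of the 400 arrangements. The 0.342% is below that share. No gene passed on HF (0%), and 2 passed on LF (0.0159%) and 2 in the test of the difference between diets (0.0159%). In 151 genes (1.2%), above that share of 0.005, the groups were apart in opposite directions. Genes are not independent, so neither count is a test. Without HF knockout replicate 1, 50.8% of genes had the same sign. Of the 12851 genes tested there, 62 had unadjusted p under 0.05 on each diet with the same sign and 80 with opposite signs. In that fit 232 were apart in the same direction and 223 in opposite directions. With a library left out fewer libraries have to be apart, so these counts rise by construction. Over all such fits they were 58 to 232 in the same direction and 183 to 367 in opposite directions. With each of the other libraries left out, 38 to 45.9% of genes had the same sign. On the deposited FPKM of all 12 libraries, 39 genes were apart in the same direction and 189 in opposite directions. There the median of genes with a mean FPKM of 1 or more was 0.15 on LF and -0.14 on HF, against -0.01 and -0.02 after TMM scaling, so single-diet values move with the scale more than the average does.

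On both scales together, 17 of the 43 genes were apart in the same direction on both diets (0.135%), beside 51 in opposite directions (0.405%). The 12 higher genes (0.0953%) were Lcn2, Cxcl1, Socs3, Stat3, Hp, Itih4, Serpina3m, C3, Prg4, Foxq1, Phlda1 and Tmem176a. The 5 lower genes (0.0397%) were Hamp, Cyp4a12b, Srd5a1, Ethe1 and Ccdc102a. These genes were picked by their values, so their differences below describe them.

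**Figure D1:**
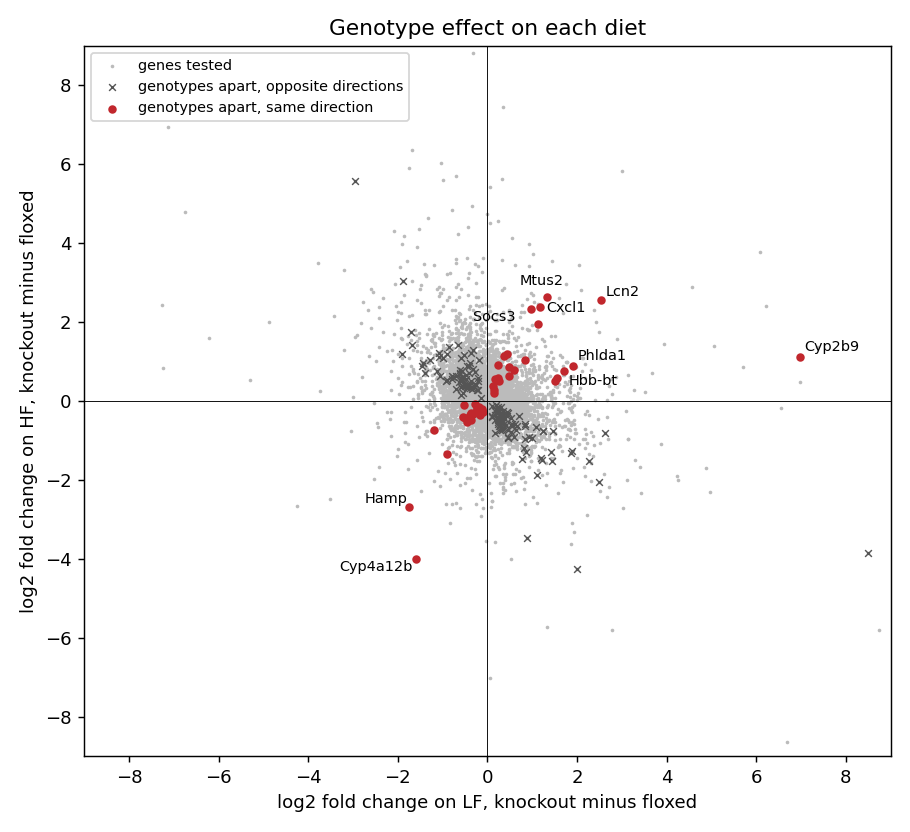
Genotype effect on LF (horizontal axis) and on HF (vertical axis), as log2 fold change of labelled knockout over floxed, for each gene tested (grey points; 2 genes lie outside the axes). Red points mark the 43 genes whose genotypes did not overlap on either diet in the same direction, except Cyp2b13, which lies outside the axes. Crosses mark the 151 genes apart in opposite directions. The red genes lie in the upper right and lower left quadrants, with Lcn2, Cxcl1 and Socs3 higher and Hamp and Cyp4a12b lower on both diets.

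The genes of the acute phase list were higher on average in the libraries labelled knockout. Of 21 acute phase genes, 21 were higher on average, against 51.1% of all genes tested. On both diets 16 were higher, against 21.7%, and none was lower, against 20.9%. The list had a median log2 difference of 0.67 (0.30 on LF and 1.15 on HF), against 0.01 over all genes tested (-0.02 and 0.03). With 1 library left out the list median ran from 0.46 (without HF knockout replicate 1) to 0.79 (without HF knockout replicate 3). Summed FPKM of the list was 36700, 19200 and 17400 in HF knockout and 11600 to 13300 in HF floxed. On LF it was 12500 to 12600 in knockout and 9070 to 11700 in floxed libraries. Unadjusted p was under 0.05 for 11 of the 21, all higher, against 1.85% of all genes tested. None passed the adjusted test. The same 21 and 16 were counted on FPKM. The list includes genes already known from earlier results of these data.

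Stat3, the transcription factor, which is not in this list, was at 71.7, 107 and 83.8 CPM in LF floxed and 153, 120 and 123 in LF knockout. On HF it was at 80, 75.7 and 78.3 CPM in floxed libraries and 156, 126 and 122 in those labelled knockout. Every library labelled knockout lay above every floxed library, across diets too. Over both diets the log2 difference averaged 0.69 (SE 0.13, 1.61-fold), with 0.59 on LF and 0.79 on HF and an edgeR adjusted p of 0.337.

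Socs3, which encodes the feedback inhibitor of STAT3 signalling, was at 2.27, 6.87 and 8.85 CPM in LF floxed and 11.5, 12.6 and 11.5 in LF knockout. Its levels on HF were 5.9, 5.14 and 3.09 CPM against 48, 14.3 and 9.52. All 6 libraries labelled knockout thus lay above all 6 floxed libraries, with HF knockout replicate 1 highest. The averaged log2 difference was 1.66 (SE 0.41, edgeR adjusted p = 0.994).

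Lcn2 encodes lipocalin 2, an iron-siderophore binding protein of the acute phase that neutrophils also make. Its CPM was 1.71, 6.87 and 4.39 in LF floxed and 10.1, 32.7 and 33.1 in LF knockout. On HF it was 131, 116 and 44.2 in floxed and 875, 613 and 240 in labelled knockout libraries. The log2 difference was 2.54 on LF (SE 0.66) and 2.57 on HF (SE 0.64), although the HF floxed level was above the LF knockout level. The average was 2.56 (SE 0.46, 5.89-fold, edgeR adjusted p = 0.274). The summed FPKM of the neutrophil list without Lcn2 was 547 in HF knockout replicate 3 and 2.19 to 14.1 in the other 11 libraries. Lcn2 was lowest in that replicate within its group.

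Cxcl1, a chemokine that attracts neutrophils, was at 2.84, 1.91 and 5.47 CPM in LF floxed and 5.55, 7.3 and 10.2 in LF knockout. The HF libraries held 4.01, 3.55 and 3.97 CPM against 33.7, 15.5 and 11.2. The groups were close on LF, where 5.47 and 5.55 were neighbours, and far apart on HF. Over both diets the log2 difference averaged 1.78 (SE 0.32, edgeR adjusted p = 0.274).

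Itih4, an inter-alpha-trypsin inhibitor heavy chain of the acute phase, was at 2078, 1998 and 1605 CPM in LF floxed and 2455, 2559 and 2623 in LF knockout. On HF it was at 1638, 1436 and 2082 CPM against 4838, 3931 and 3061. The averaged log2 difference was 0.81 (SE 0.19, edgeR adjusted p = 0.719), smaller on LF (0.43) than on HF (1.2). The difference between diets was not a call (log2 0.77, SE 0.37, adjusted p = 0.538).

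Hp, haptoglobin, an acute phase protein that binds free haemoglobin, had an averaged log2 difference of 0.76 (SE 0.27), with 1979 to 2401 CPM in LF floxed, 2731 to 2944 in LF knockout, 2976 to 3723 in HF floxed and 4439 to 12602 in HF knockout. Outside the acute phase list but among the 12 higher genes, C3, the central complement component, was 0.57 (SE 0.22), and Serpina3m, a serine protease inhibitor, was 0.68 (SE 0.18). Prg4, which encodes the lubricating proteoglycan lubricin, was 0.94 (SE 0.22), at 49.5 to 79.8 CPM in LF floxed and 97.4 to 127 in LF knockout, and at 82.6 to 97.7 and 133 to 297 on HF. The Saa genes, serum amyloid A proteins with near-identical copies that counting can split between them, did not stay apart: Saa1 in HF knockout was at 2685, 13.2 and 239 CPM against 94.9 to 141 in HF floxed. HF knockout replicate 2, with 13.2, was thus below every HF floxed library.

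The STAT motif TTCNNNGAA was searched in the 250 bases before the start of each gene in RefSeq promoter windows of GRCm38.p6. The motif is its own reverse complement, so a search of either strand covers both. It was present in 7.02% of all 32851 windows. Below, a gene counts if any of its windows holds a motif, so counts of genes and shares of windows have different units. The 19 higher genes with a window had 22 windows, and the 17 lower ones had 19. Of the 24 higher genes of the 43, 19 had a window and 3 held the motif (Itih4, Mtus2 and Socs3), and of the 19 lower genes 17 had a window and 2 held it (Hamp and Tmbim1). Itih4, Socs3 and Hamp were apart on both scales. On FPKM Mtus2 overlapped on LF, and Tmbim1 was higher there, at 16.91 to 18.37 in LF knockout against 16.22 to 16.69 in LF floxed. The sequences of Socs3 (chr11:117969367-117969616, minus strand) and Itih4 (chr14:30886226-30886475, plus strand) are shown because both genes were higher on each diet, with Hamp (chr7:30944030-30944279, minus strand) as the lower gene with the same motif. Each runs 5′ to 3′ up to the base before the start, and capitals mark TTCNNNGAA, which reads TTCTTAGAA in Socs3, TTCCGAGAA in Itih4 and TTCTTGGAA in Hamp. In Hamp capitals also mark the BMP element GGCGCC, with 6 bases between the motifs.
Socs3: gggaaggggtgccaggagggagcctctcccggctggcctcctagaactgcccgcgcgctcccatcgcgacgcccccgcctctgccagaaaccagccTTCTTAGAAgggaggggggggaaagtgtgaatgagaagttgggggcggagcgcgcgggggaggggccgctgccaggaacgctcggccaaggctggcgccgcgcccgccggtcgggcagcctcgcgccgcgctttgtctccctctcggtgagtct
Itih4: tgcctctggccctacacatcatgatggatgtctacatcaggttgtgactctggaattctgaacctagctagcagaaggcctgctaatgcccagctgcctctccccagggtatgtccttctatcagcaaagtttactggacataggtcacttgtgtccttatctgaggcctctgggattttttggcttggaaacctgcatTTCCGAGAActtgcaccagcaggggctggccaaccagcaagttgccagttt
Hamp: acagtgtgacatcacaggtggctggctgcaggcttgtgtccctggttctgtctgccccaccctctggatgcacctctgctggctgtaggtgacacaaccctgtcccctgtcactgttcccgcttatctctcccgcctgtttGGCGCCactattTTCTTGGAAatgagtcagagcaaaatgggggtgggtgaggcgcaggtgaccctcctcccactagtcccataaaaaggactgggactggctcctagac
GGCGCC, also its own reverse complement, was present in 9.59% of all windows, in 2 of the 19 higher genes with a window (Mtus2 and Socs3) and in 5 of the 17 lower ones (Hamp, Srd5a1, Nae1, Pbdc1 and 1110059G10Rik). Of these, only Socs3, Hamp and Srd5a1 were apart on both scales. In Socs3 the GGCGCC is left in lower case. A match is a description of these letters and not evidence of a bound site.

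Foxq1, a forkhead transcription factor, was at 12.5, 18.4 and 21.8 CPM in LF floxed and 29.8, 41 and 43.8 in LF knockout. Its levels on HF were 6.02, 5.5 and 6.84 CPM against 26.2, 37.7 and 7.82. HF knockout replicate 3 lay just above the floxed libraries and the other HF knockout libraries well above them. Over both diets the log2 difference averaged 1.54 (SE 0.31, edgeR adjusted p = 0.398), and without HF knockout replicate 3 it was 1.75 with an adjusted p of 0.017. The library left out was the HF knockout library nearest the floxed level, and no other fit with 1 library left out called Foxq1. Phlda1, a pleckstrin homology-like domain gene, had an average log2 difference of 1.40 (SE 0.26, edgeR adjusted p = 0.285). Its LF values were 41.4, 53.1 and 33.3 CPM against 83.5, 190 and 209. The HF libraries held 29.4, 26.8 and 30 CPM against 73.4, 55 and 30.6, where the last value lay just above the floxed group.

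**Figure D2:**
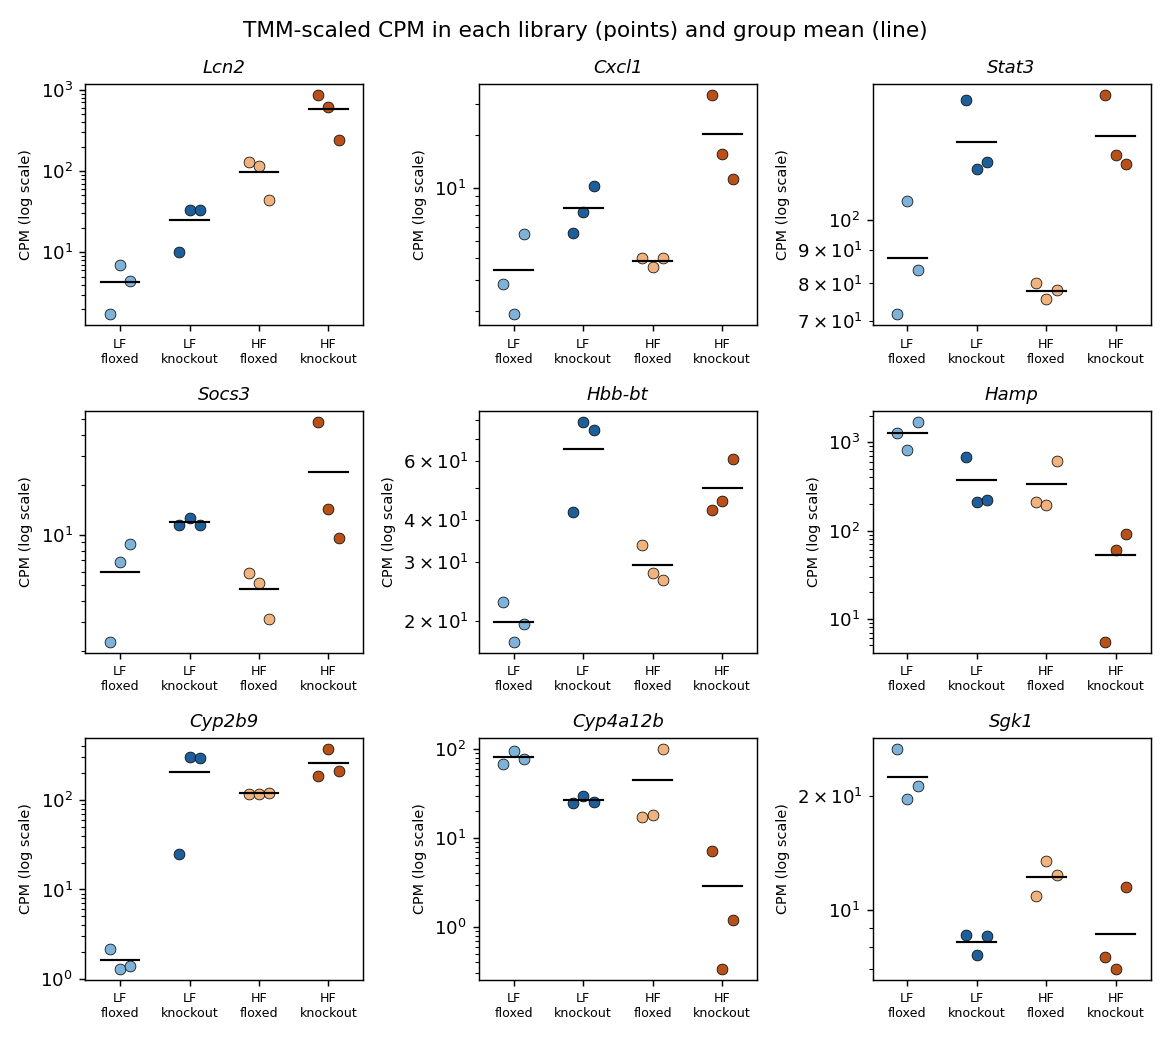
TMM-scaled CPM on a logarithmic axis for 9 genes in the 12 libraries. Points are libraries, lines are group means, and colours mark the 4 groups. Lcn2, Cxcl1, Stat3, Socs3, Hbb-bt and Cyp2b9 are higher, and Hamp and Cyp4a12b lower, in the labelled knockout libraries on each diet, while Sgk1 is apart on LF and overlaps the floxed range on HF.

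Hamp, the hepcidin gene, was lower in the libraries labelled knockout on both diets. It was at 1262, 826 and 1708 CPM in LF floxed and 690, 213 and 224 in LF knockout. On HF it was at 210, 194 and 610 CPM in floxed and 5.52, 59.7 and 91.6 in labelled knockout libraries. The genotypes did not overlap on either diet, and LF knockout overlapped HF floxed. The averaged log2 difference was -2.22 (SE 0.59, 4.67-fold lower), with -1.75 on LF and -2.69 on HF and an edgeR adjusted p of 0.994. Hamp2, its paralogue, was at 0.00 on average (SE 0.61).

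Of 4 genes known as targets of BMP signalling, chosen after their values were seen, all had a lower level on LF and 2 a higher one on HF. Id3, an inhibitor of DNA binding, was -0.90 on average (SE 0.26), -1.28 on LF and -0.53 on HF, and Atoh8, a transcription factor that responds to iron, was -0.88 (SE 0.28), -1.49 and -0.27. Id1 was -2.60 on LF and 1.84 on HF, and the inhibitor Smad7 was -1.23 and 0.51. Of 20 metallothionein, zinc and iron genes, 9 were higher on average and 11 lower, 3 were higher and 5 lower on both diets, and none passed the test.

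Globin genes were higher in the libraries labelled knockout. Hbb-bt, a beta globin of the adult haemoglobin, was at 22.7, 17.3 and 19.6 CPM in LF floxed and 42.4, 78.8 and 74.7 in LF knockout. Its levels on HF were 33.7, 27.7 and 26.4 CPM against 42.9, 45.6 and 61. The genotypes were apart on both diets after TMM scaling, but on FPKM they overlapped on HF, at 37.05 to 55.68 against 52.94 to 100.68. Over both diets the log2 difference averaged 1.24 (SE 0.17, 2.37-fold), with 1.72 on LF and 0.77 on HF and an edgeR adjusted p of 0.0776. The other globin genes were also further apart on LF. Hbb-bs was 1.01 on average (SE 0.15), 1.51 on LF and 0.52 on HF. Hba-a1 was 1.07 (SE 0.19), 1.55 on LF and 0.58 on HF, and both genes overlapped on HF in FPKM. Hba-a2 was 1.11 (SE 0.22), 1.78 on LF and 0.44 on HF, and overlapped on HF in CPM too, at 158 to 212 in floxed and 199 to 330 in labelled knockout libraries. Hbb-bs and Hbb-bt, and Hba-a1 and Hba-a2, are near-identical pairs whose split between copies is uncertain. Without LF knockout replicate 1, 8 genes passed in edgeR, among them all 4 globin genes, with an adjusted p of 0.00318 for Hbb-bt and 0.034 for Hbb-bs. For Hbb-bt that replicate was the LF knockout library nearest the floxed level. No other fit with 1 library left out called a globin gene.

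Of 13 erythroid genes 10 passed the filter, which a gene can pass through the group where it is high, so no count over them is given. Those outside the globins went both ways. Alas2, the haem synthesis enzyme of red cell precursors, was -0.22 (SE 0.38) and the carbonic anhydrase Car1 -0.51. Slc4a1, the red cell anion exchanger, had no count in the 3 LF floxed libraries and 0, 0.946 and 0.808 CPM in LF knockout, which is at least 7.68-fold higher over the group. On HF Slc4a1 was at 0.376, 0.177 and 0.0735 CPM against 3.1, 1.49 and 4.41. Summed FPKM of the erythroid list was 766 to 794 in LF floxed, 1540 to 3170 in LF knockout, 1100 to 1480 in HF floxed and 1240 to 2290 in HF knockout. How much blood each liver held was not tested.

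Among liver genes that differ between the sexes, most male-biased genes that were tested were lower on average in the libraries labelled knockout, and the size rested on single libraries. Of 15 female-biased genes 8 passed the filter, so no count over them is given. Summed FPKM of the 15 was 8.61 to 22.6 in LF floxed and 66 to 123 in LF knockout. The HF sums were 43.7 to 86 in floxed and 59.1, 1320 and 188 in labelled knockout libraries, so that HF knockout replicate 1 lay within the floxed range. Of 21 male-biased genes 20 were tested. Of these 16 were lower on average and 15 on both diets, against 48.9% and 20.9% of all genes tested. The median log2 difference of the 20 was -0.70 (-0.88 on LF, -0.34 on HF). Unadjusted p was under 0.05 for 5 of them, all lower, against 1.37% of all genes tested. Without HF floxed replicate 3 the male-biased median was -0.06, without HF knockout replicate 1 -1.37 and without HF knockout replicate 2 -0.45. Summed FPKM of the male-biased list was 25100 to 56800 in LF floxed and 19500 to 29500 in LF knockout. The HF sums were 17400 to 56900 in floxed and 58600, 3500 and 9300 in labelled knockout libraries. HF knockout replicate 1 thus lay above every HF floxed library, and the other HF knockout libraries below them all.

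Cyp2b9, a cytochrome P450 of female liver, was at 2.19, 1.3 and 1.39 CPM in LF floxed and 25, 302 and 292 in LF knockout. The HF libraries held 117, 116 and 121 CPM against 184, 371 and 211. The floxed libraries of the HF diet thus stood well above those of the LF diet, and the labelled knockout libraries above their own controls on each diet. The log2 difference was 6.98 on LF (SE 0.85), where Cyp2b9 was 1 of 2 genes called by edgeR (0.0159%), and 1.12 on HF (SE 0.64). The average was 4.05 (SE 0.52, adjusted p = 0.0776), and with no filter on low counts its adjusted p was 0.0329. On FPKM the HF groups overlapped, at 36 to 46.19 against 45.66 to 115.79. Cyp2b13, a near-identical neighbour whose reads can be shared with Cyp2b9, had no count in LF floxed and 0.365, 26.4 and 26.7 CPM in LF knockout, at least 234-fold higher over the group. On HF Cyp2b13 was at 6.84, 8.28 and 7.13 CPM against 11.7, 24 and 19.5. Hao2, a hydroxyacid oxidase, was 3.95 higher on LF and 1.44 on HF on the log2 scale, and the HF groups overlapped (1.32 to 1.84 against 1.26 to 10 CPM).

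Cyp4a12b, an androgen-dependent fatty acid hydroxylase of male liver, was at 69.2, 96.2 and 78.6 CPM in LF floxed and 24.6, 30.2 and 25.7 in LF knockout. On HF it was at 17.4, 18.1 and 101 CPM against 7.2, 0.338 and 1.2. HF floxed replicate 3, at 101, was at the level of LF floxed and far above its group. The averaged log2 difference was -2.81 (SE 0.61, edgeR adjusted p = 0.593), with -1.60 on LF and -4.01 on HF. Without HF floxed replicate 3 and HF knockout replicate 1, whose files are named in another form than the rest, it was -3.03 with an adjusted p of 0.00349. No fit with 1 library left out called Cyp4a12b. Cyp4a12a, a near-identical copy, was at -0.47 (SE 0.88).

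Mup20, the major urinary protein darcin, was at 18098, 6331 and 17256 CPM in LF floxed and 7588, 6035 and 5737 in LF knockout. Its levels on HF were 7393, 7009 and 11609 CPM against 3772, 1581 and 2276. It was apart on HF, and LF floxed replicate 2 lay within the LF knockout range. Over both diets the log2 difference averaged -1.44 (SE 0.32, edgeR adjusted p = 0.717). Not all Mup genes went this way: Mup1 was at 0.31 and Mup12 at 0.33 on average. Srd5a1, the steroid 5-alpha-reductase, which is in none of these lists, was -1.12 (SE 0.36). It was at 146 to 199 CPM in LF floxed, 68 to 123 in LF knockout, 80.2 to 115 in HF floxed and 8.84 to 60.5 in HF knockout, with no overlap on either diet.

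**Figure D3:**
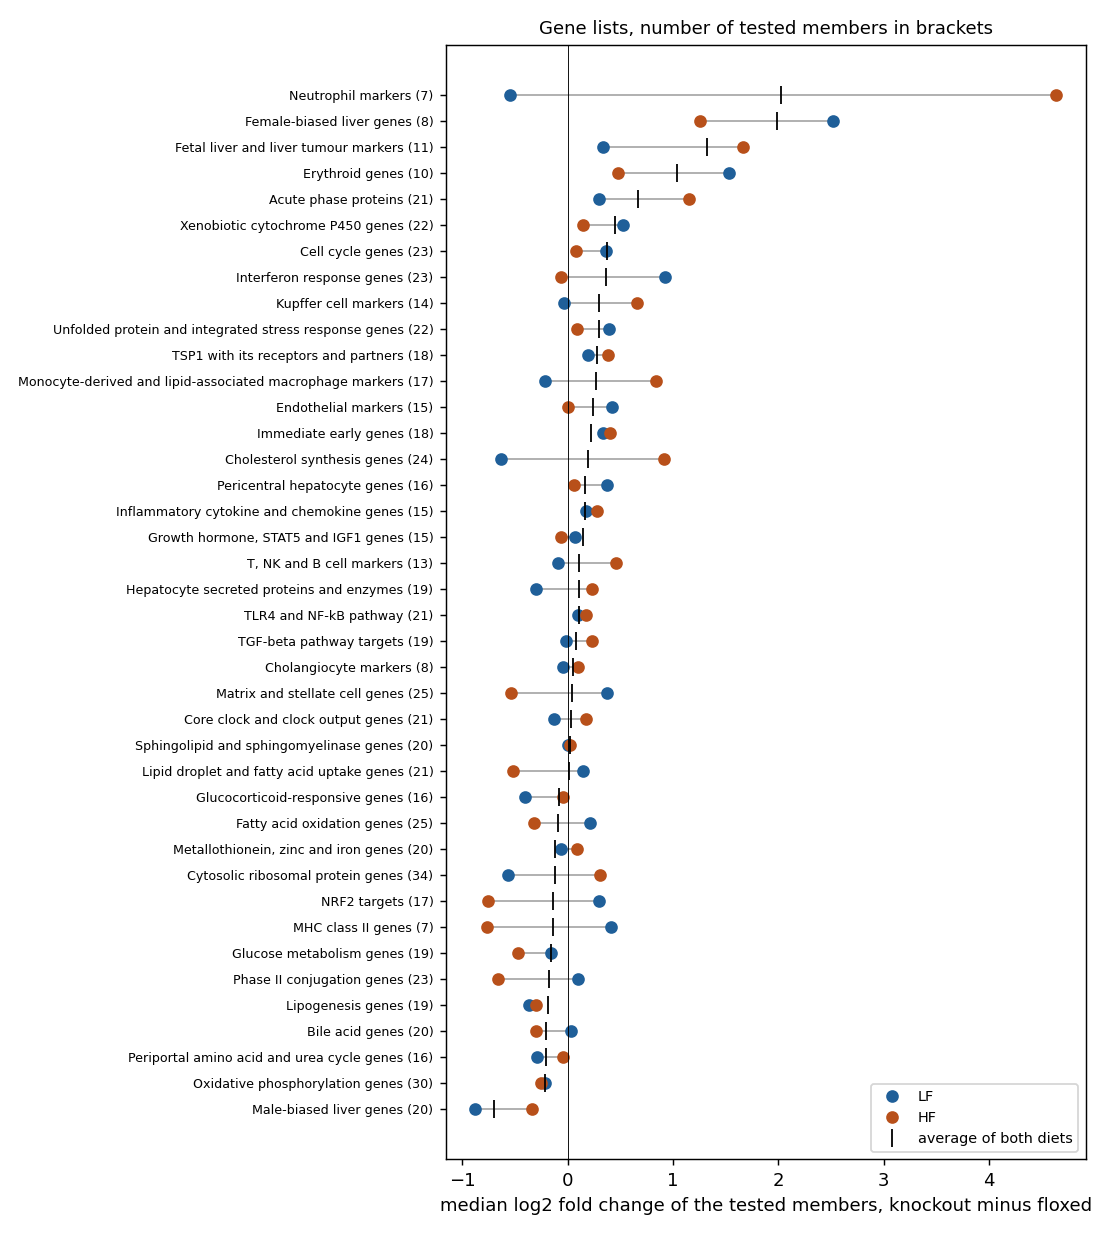
Median log2 difference between labelled knockout and floxed libraries for each gene list with 5 or more tested members, on LF (blue), on HF (orange) and averaged (black bar), with the number of tested members in brackets. The acute phase list has both diets to the right of 0, the male-biased and oxidative phosphorylation lists both to the left, and the ribosomal protein and cholesterol synthesis lists lie on opposite sides.

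The mitochondrial transcripts took a smaller share of all counts in the libraries labelled knockout. They are held in 1 locus of 15226 bases without a gene name, which the files describe as a mitochondrial NADH dehydrogenase subunit. Its share was 16.06, 13.49 and 15.72% in LF floxed (15.09 ± 1.39, SD, n = 3) and 10.07, 12.02 and 11.71% in LF knockout (11.27 ± 1.05, SD, n = 3). On HF it was 12.48, 12.02 and 12.05% in floxed (12.18 ± 0.26, SD, n = 3) and 10.26, 5.30 and 11.53% in labelled knockout libraries (9.03 ± 3.29, SD, n = 3). The genotypes did not overlap on either diet. The averaged difference was -3.49 percentage points, -3.82 on LF and -3.15 on HF. The locus was chosen after its values were seen, so the difference is given with no test. The difference was -2.55 without HF knockout replicate 2 and -4.11 without HF knockout replicate 3. The groups stayed apart in all 13 alternatives run. Each of these left out libraries or averaged them within a group, so this was fixed in advance. RNA quality is not given in the sources used here, and its part in the result was not tested.

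**Figure D4:**
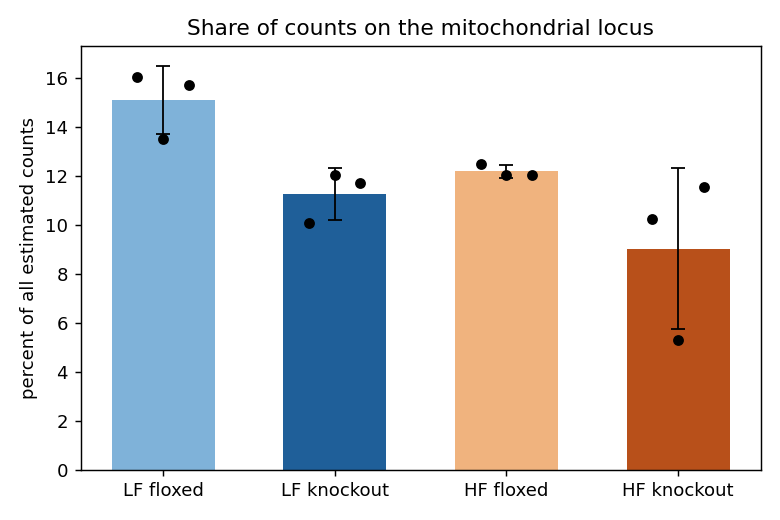
Share of all estimated counts on the mitochondrial locus, in percent. Bars are group means, error bars the SD of 3 libraries, and points the libraries. On each diet every library labelled knockout lies below every floxed library, and HF knockout replicate 2 is lowest at 5.30%.

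Nuclear genes of oxidative phosphorylation were slightly lower as well. Of 30 members 30 were lower on average and 26 on both diets, against 48.9% and 20.9% of all genes tested. The median log2 difference of the 30 was -0.22 (-0.22 on LF, -0.25 on HF), and none was apart on both diets. Unadjusted p was under 0.05 for 2 of them, both lower, against 1.37% of all genes tested. These were Sdhd of complex II (-0.44, SE 0.19) and Ndufa4 of the respiratory chain (-0.47, SE 0.21), and no member passed the adjusted test. On FPKM the 30 stayed lower on average, 20 on both diets, with medians of -0.04 on LF and -0.45 on HF. Summed FPKM overlapped on LF, at 5060 to 6090 in floxed and 5070 to 6060 in labelled knockout libraries. On HF it was 5560 to 5800 against 2810 to 4970. Without HF knockout replicate 2 the averaged median was -0.08, and without HF knockout replicate 1 it was -0.35. As a contrast, 30 of 34 cytosolic ribosomal protein genes were lower on average, but 33 had opposite signs on the 2 diets, with medians of -0.57 on LF and 0.31 on HF.

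Of single mitochondrial genes, Ethe1, a sulfur dioxygenase, was at 71.4 to 85.9 CPM in LF floxed, 54.8 to 59.2 in LF knockout, 55.1 to 72 in HF floxed and 25.9 to 52.3 in HF knockout. Its averaged log2 difference was -0.48 (SE 0.17, edgeR adjusted p = 0.994). Ptpmt1, a phosphatase of cardiolipin synthesis, was -0.46 (SE 0.13), with -0.50 on LF and -0.43 on HF. Usmg5, a small subunit of the ATP synthase, was -0.36 (SE 0.14). Ptpmt1 and Usmg5 were apart on both diets in CPM. In FPKM Ptpmt1 overlapped on HF, and Usmg5 on both diets.

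**Figure D5:**
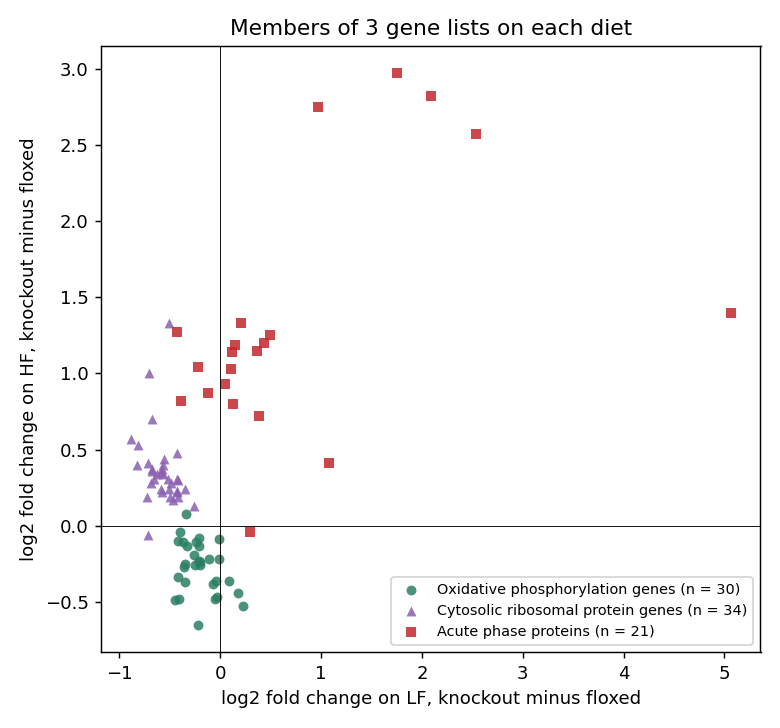
Log2 difference on LF (horizontal) and on HF (vertical) for the tested members of the acute phase (squares, 21), oxidative phosphorylation (circles, 30) and ribosomal protein (triangles, 34) lists. Acute phase genes spread into the upper right, 26 oxidative phosphorylation genes lie in the lower left close to 0, and 33 ribosomal protein genes have opposite signs on the 2 diets.

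Sgk1, a kinase induced by glucocorticoids, had the smallest p of the lower genes. It was at 26.6, 19.7 and 21.2 CPM in LF floxed and 8.62, 7.64 and 8.55 in LF knockout. The HF libraries held 10.9, 13.5 and 12.4 CPM against 7.53, 7.02 and 11.5, where HF knockout replicate 3 overlapped the floxed range. The averaged log2 difference was -0.97 (SE 0.15, edgeR adjusted p = 0.109), and without that replicate it was -1.1 with an adjusted p of 0.0353. The library left out was the one that overlapped, and no other fit with 1 library left out called Sgk1. The list of glucocorticoid-responsive genes as a whole was split: of 16 members 8 were higher and 8 lower on average, 3 higher and 7 lower on both diets, with a median of -0.08. Zbtb16, a zinc finger gene of this list, was -0.96 (SE 0.33).

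Members of 2 metabolic lists were mostly lower, with none passing the adjusted test. Among all genes tested, 48.9% were lower on average and 20.9% on both diets. Of 19 glucose metabolism genes 14 were lower on average and 9 on both diets, with a median of -0.16 that was -0.26 or -0.27 without LF floxed replicate 3, HF floxed replicate 3 or HF knockout replicate 1. Among them were G6pc, the glucose-6-phosphatase, at -1.11 (SE 0.35), and Pklr, the liver pyruvate kinase, at -0.79 (SE 0.28). Of 19 lipogenesis genes 14 were lower on average and 10 on both diets (median -0.19). That median was -0.69 without HF knockout replicate 2, -0.56 without LF knockout replicate 1, -0.30 without LF floxed replicate 3 and -1.10 with voom weights. G6pc was at 338 to 562 CPM in LF floxed and 156 to 162 in LF knockout, and on HF at 221 to 321 against 34.6 to 227, where the groups overlapped.

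Macrophage markers often had opposite signs on the 2 diets, as did 7222 of all 12587 genes tested. Among all genes tested, 51.1% were higher on average and 21.7% on both diets. Of 14 Kupffer cell markers 12 were higher on average but 3 on both diets and 10 with opposite signs, and the summed FPKM was 169 to 294 in LF floxed, 159 to 200 in LF knockout, 194 to 256 in HF floxed and 106 to 452 in HF knockout. Their median of 0.30 was 0.09 without HF knockout replicate 3, 0.20 without LF floxed replicate 1, 0.48 without LF floxed replicate 3 and 0.49 without HF knockout replicate 2. Of 17 macrophage markers of the monocyte-derived and lipid-associated kind, 11 were higher on average and 3 on both diets, and 12 had opposite signs. Of 23 interferon response genes 22 were higher on average and 9 on both diets, with a median of 0.92 on LF and -0.06 on HF. Of 21 TLR4 and NF-kB pathway genes 18 were higher on average and 9 on both diets, and Nfkb1 was 0.32 (SE 0.13).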

How the data were processed

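Total RNA of liver was sequenced by BGI in 12 libraries. Per the file headers, the deposited files hold estimated counts (expected counts) in the column layout of RSEM, and FPKM values that the authors scaled to gene length and sequencing depth. The submitters' processing notes name genome build mm9. The aligner, counter and annotation used: not given in the sources used here. Files list no locus under 0.01 FPKM, and 3825 named genes absent from at least 1 file were set to 0 there. The 1229 loci without a gene name (6.65 to 17.33% of counts per library) stayed out of library sizes and tests.

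Estimated counts were rounded and fitted with edgeR 4.0.16 (R 4.3.3) on all 12 libraries, 1 mean per group, with TMM factors, filterByExpr and quasi-likelihood tests. Adjusted p-values are Benjamini-Hochberg values over the 12587 genes, with calls at 5%. Each SE is the absolute log2 difference divided by the square root of the F statistic of its quasi-likelihood test. It is less reliable for very small differences. Exact permutations exchanged genotype labels within each diet (400 arrangements, smallest two-sided p 0.005), over log2(FPKM + 1). Groups were called apart where all 3 libraries of 1 genotype lay beyond all 3 of the other, in log2 CPM with a prior count of 2. A fold against a group with no counts was bounded with 3 counts over that group. The pipeline was tested on simulated data. Gene lists, members and named genes were chosen with earlier results of these data known. Named genes are the 12 of smallest p per direction with the same sign on both diets, the 10 per direction apart on both diets with the largest smaller effect, and the 2 of smallest p per list. Further genes of the 43 that were apart, and members given as contrasts, were chosen after their values were seen. Alternatives were DESeq2 1.42.0 and its size factors, other filters, limma 3.58.1 on FPKM or with voom weights, an additive model, a replicate block, unnamed loci kept, near-identical libraries averaged, and libraries left out. Promoter windows are from RefSeq. Same-numbered libraries of different groups had deviations correlated from -0.331 to 0.404 (median -0.032). Differently numbered ones ranged from -0.551 to 0.55 (median 0.02), so the replicate numbers were not taken as pairs. The highest value, 0.55, was between HF floxed replicate 3 and HF knockout replicate 1, whose files are named in another form.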

Additional observations from a re-analysis of the deposited data

Results flagged for a closer look

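The genotype effect differed between the diets, by the interaction test of edgeR, for 2 genes, which therefore belong to no shared effect. Gnai1, an inhibitory G protein alpha subunit, had an HF minus LF difference of -6.26 on the log2 scale (SE 0.79, adjusted p = 0.0358). It was at 1.06, 0.534 and 1 CPM in LF floxed, 2.05, 4.8 and 3.64 in LF knockout, 8.34, 8.16 and 6.4 in HF floxed and 0.837, 0.27 and 0.126 in HF knockout. The libraries labelled knockout were thus all higher on LF and all lower on HF. Morf4l1b, a copy of a chromatin subunit gene whose reads can be shared with its parent gene, had a difference of 3.11 (SE 0.3, adjusted p = 0.00452). It was at 34, 22.7 and 25.7 CPM in LF floxed, 9.86, 8.79 and 7.07 in LF knockout, 7.72, 8.57 and 10.8 in HF floxed and 23.8, 21.3 and 27.9 in HF knockout, all lower on LF and all higher on HF.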

How the results depend on the processing

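The count of genes passing for the averaged effect was 0 in edgeR, 23 in DESeq2, 4 in limma voom with sample weights, 1 with no filter on low counts, 1 without HF floxed replicate 3 and HF knockout replicate 1, and 0 to 8 with each library left out (8 without LF knockout replicate 1). The 405 genes at unadjusted p under 0.05 became 1673 with voom weights, 142 with near-identical libraries averaged, 1019 without HF floxed replicate 3 and HF knockout replicate 1, and 243 to 1316 with each library left out (243 without LF knockout replicate 3, 1316 without HF knockout replicate 1). The 43 genes apart in the same direction became 82, 314 and 58 to 232 in the last 3 settings, where fewer libraries have to be apart. With the replicate block, 0 genes passed, 374 had an unadjusted p under 0.05 and the correlation of the effects was -0.287. The correlation was negative in every alternative that gave one. All 44 named genes that were checked kept their direction in every alternative that gave them a value (24, or 22 for Thbs1, Dpep1, Wt1, Mtus2 and Ccdc102a). Most of these genes were picked by their values in the same libraries, so this agreement was largely built in. Thbs1 ranged from 1.29 to 1.84. Of 14 fetal liver and tumour markers 11 passed the filter, which a gene can pass through the group where it is high. Their median was 1.32 and reversed to -0.45 without HF knockout replicate 2, so it is not read as a shared effect. Precision is limited by 3 libraries a group, by the spread in HF knockout and by the near-identical pairs.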

Other observations

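In some gene groups outside the account above most members shared a sign on average, with no member passing the test. Among all genes tested, 51.1% were higher and 48.9% lower on average. On both diets 21.7% were higher and 20.9% lower. Of 22 tested genes of the unfolded protein and integrated stress response, 19 were higher on average and 7 on both diets (median log2 difference 0.30). Sdf2l1, an endoplasmic reticulum chaperone component, was at 0.86 on LF and 0.63 on HF, while the stress cytokine Gdf15 was at 2.20 on LF and -0.84 on HF. Of 20 immediate early genes 18 passed the filter on low counts, and Fos, a subunit of the AP-1 transcription factor, was at 1.05 on LF and 0.87 on HF. Of 16 periportal amino acid and urea cycle genes 13 were lower on average and 9 on both diets, with a median of -0.21 that was -0.07 without HF floxed replicate 3 or HF knockout replicate 2 and -0.14 without LF floxed replicate 3 or LF knockout replicate 2 or 3. Arg1, the arginase of the urea cycle, was at -0.54 and -0.06. Cholesterol synthesis genes had opposite signs on the 2 diets in 22 of 24 members, with medians of -0.63 on LF and 0.91 on HF.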
